A study of Mus musculus with 4 samples.

Results

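Accessible chromatin was described at 10 genes of phosphoinositide signaling in the aorta of control and VEDS mice: the phospholipase C genes *Plcb1*, *Plcb3*, *Plcb4* and *Plcg1*, the IP3 receptor genes *Itpr1*, *Itpr2* and *Itpr3*, and the protein kinase C genes *Prkca*, *Prkcb* and *Prkcd*. They are 10 of 21938 protein-coding genes in GENCODE vM21 and were listed by name. A locus was the gene body with 20 kb on each side, and overlapping peaks of the libraries were merged into a region, numbered from the 5′ end of each gene. The loci held 104 of the 42961 regions in the genome.

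The peaks came from ATAC-seq, in which the transposase Tn5 cuts accessible DNA, on aortic nuclei of untreated mice at P60. Control mice were *Col3a1*+/+, and VEDS mice were *Col3a1* G938D/+, heterozygous for a glycine substitution in the triple helix of type III collagen. A female and a male library were made per genotype, each from the pooled aortas of 2 mice, so that the 2 libraries of a genotype differ in sex. Libraries are called here by their genotype and sex, and a value for control females is that of the 1 pooled library. Nuclei passed through a single-cell kit, but the peaks were called on each whole library, and the colony was kept on C57BL/6J. The *Col3a1* allele is present in every cell of the VEDS mice and is not restricted to a vascular cell type.

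Phospholipase C cleaves the membrane lipid PIP2 into IP3 and diacylglycerol. The β isoforms are activated by Gq-coupled receptors, such as those for angiotensin II and endothelin, whereas PLCγ1 is recruited to tyrosine kinase receptors. IP3 opens its receptors on the endoplasmic reticulum to release calcium, and diacylglycerol activates protein kinase C, with calcium for the conventional isoforms PKCα and PKCβ and without it for PKCδ. In vascular smooth muscle this cascade couples vasoconstrictors to contraction.

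The lists differed greatly in length, from 21176 (control female) and 41444 (VEDS male) peaks down to 1236 (control male) and 504 (VEDS female). The median number of fragments at a summit was 14 and 22 in the former and 7 and 6 in the latter, and over 50% of bases were masked as repeats in 68.8% of control male peaks and 27.4% of VEDS female peaks, compared with 3.9% and 5.09% in the long lists. Fragments here stand for the pileup at the summit, which may count cut sites and not whole fragments. The long lists (control female and VEDS male) carry library names from 1 run of numbers and the short lists (control male and VEDS female) from another, which the annotations do not call a batch. Within the long lists all 8 smooth muscle marker genes had a promoter peak, along with 1 (control female) and 4 (VEDS male) of 5 endothelial, 2 and 1 of 5 fibroblast, 0 and 1 of 6 immune, 1 and 2 of 4 adipocyte, and 0 and 1 of 4 striated muscle markers. Of all 32 markers, 37.5% (control female) and 53.1% (VEDS male) had a promoter peak, beside 47.4% and 58.5% of protein-coding genes. No marker of the 32 had one in either short list, beside 1.56% (control male) and 1.49% (VEDS female) of protein-coding genes. The part of cell makeup in any difference was not tested, and fewer cells of a type and less accessible DNA per cell cannot be told apart.

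Serum response factor (SRF) and MEF2 are transcription factors of muscle genes, and AP-1 is the FOS/JUN dimer. Windows around summits that held both a MEF2 and an SRF match were found at *Itpr1* only. An intron 4 region (region 6, peaks in both long lists) carried a pair of MEF2 matches on either side of an SRF match (CArG box) in the VEDS male window, of which the control female window held the SRF match and the MEF2 match 3′ of it, and an intron 5 region (region 13, VEDS male list) carried MEF2 and SRF matches 6 bases apart, shown here from chr6:108307182-108307429 and chr6:108344011-108344056 of GRCm38, plus strand, with the matches in capitals.
Itpr1 region 6: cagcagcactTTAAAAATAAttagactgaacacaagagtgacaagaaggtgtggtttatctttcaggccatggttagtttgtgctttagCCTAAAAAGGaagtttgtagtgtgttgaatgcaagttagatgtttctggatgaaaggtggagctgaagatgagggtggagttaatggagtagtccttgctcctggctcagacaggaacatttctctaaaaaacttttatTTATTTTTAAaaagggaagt
Itpr1 region 13: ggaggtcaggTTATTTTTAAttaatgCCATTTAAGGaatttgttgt

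The other SRF and MEF2 matches that had a peak in both long lists are shown with 10 bases on each side and the match in capitals, because they are the ones found in more than 1 library. They lie at chr6:108306551-108306580 and chr6:108325982-108326011 (*Itpr1*), chr2:135836863-135836892 (*Plcb4*), and chr2:135440289-135440318 and chr2:135493057-135493086 (*Plcb1*).
Itpr1 region 5, SRF: ctttcatttgCCTTATATGGtcagctgtgg
Itpr1 region 9, MEF2: ccttcaagagCTAAAAATAGgactacccgg
Plcb4 region 10, SRF: tgattttttaCCATAATTGGctgtgtggta
Plcb1 region 14, MEF2: tgcctttaaaCTATTTATAAtaaatttcca
Plcb1 region 17, MEF2: cgtcacaactTTAAAAATAAgcctttgctc

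AP-1 matches in both long lists were found in 5 regions, in introns of *Itpr1* (regions 14, 19 and 20), *Plcb1* (region 2) and *Plcb4* (region 7). At *Itpr1* region 14 the match was in the control female window but outside the control female peak. They lie at chr6:108351119-108351148, chr6:108436779-108436808, chr6:108448576-108448605, chr2:134800389-134800418 and chr2:135766843-135766872.
Itpr1 region 14, AP-1: ctgtgggaaggTGAGTCAgtggatgatcag
Itpr1 region 19, AP-1: ttaaattctacTGACTCAtgcttcagtccc
Itpr1 region 20, AP-1: ggagttagaaaTGAGTCActttcaagtggt
Plcb1 region 2, AP-1: ttgtgtatttcTGAGTCAgaccaggccttg
Plcb4 region 7, AP-1: ccagggggctgTGACTCAtagcagcctttc

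Across the 10 loci, control females had 45 peaks, control males 4, VEDS females 1 and VEDS males 102. In the same order these are 0.213%, 0.324%, 0.198% and 0.246% of the lists, so the numbers at the loci followed the lengths of the lists. A control peak was present in 47 regions, a VEDS peak in 101, and both in 44. Of the control regions 93.6% (95% CI, 82.8%–97.8%) had a VEDS peak, beside 92.7% of control regions in the genome. Of the VEDS regions 43.6% (95% CI, 34.3%–53.3%) had a control peak, beside 47.9% in the genome. Each interval included the genome value. The intervals take regions as independent although many share a locus, so they are not read as tests. With 2 libraries per genotype the smallest two-sided p of an exact permutation test is 0.33, and no genotype difference was tested.

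The direction of the count differed between the sexes, which was not tested. Among females the control library had 45 peaks and the VEDS library 1, and among males the control library had 4 and the VEDS library 102. Compared within each run of library names, the VEDS male library had 102 peaks against 45 in the control female (long lists), and the VEDS female had 1 against 4 in the control male (short lists).

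**Figure D1:**
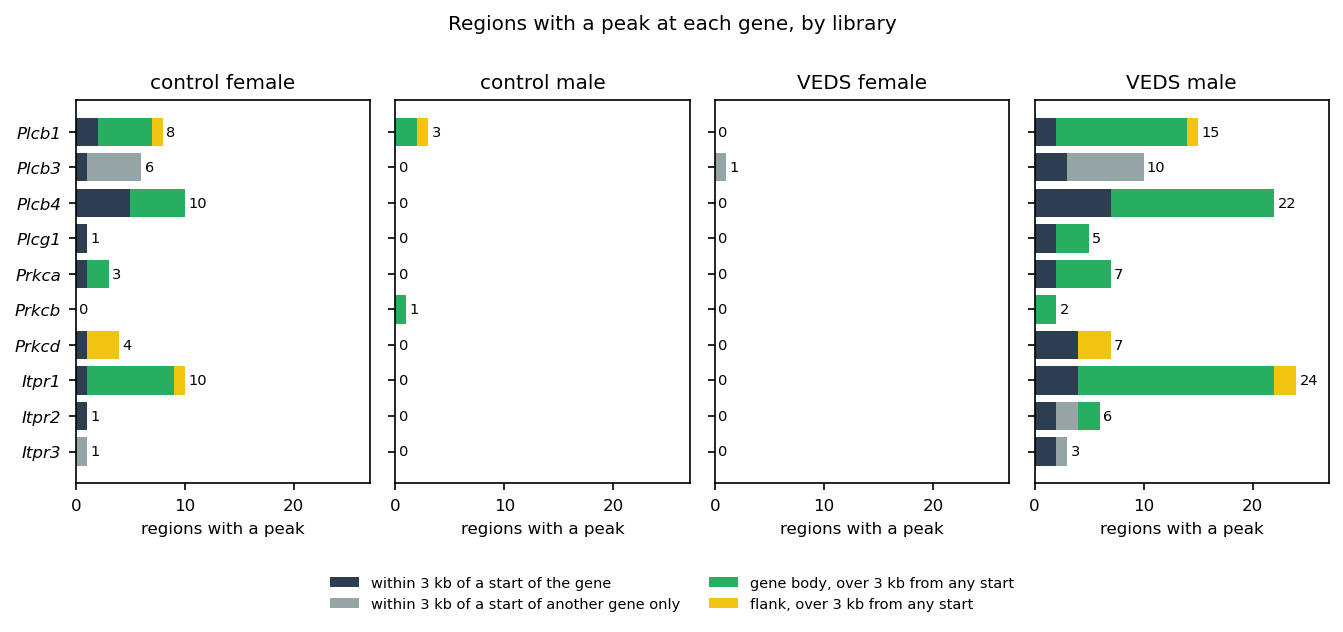
Number of regions with a peak at each gene (x axis) in each library (panels), with bars divided by position relative to annotated transcription start sites. The control male library had regions with a peak at *Plcb1* (3) and *Prkcb* (1), the VEDS female library at *Plcb3* (1), and the VEDS male library had the most regions at all 10 genes, with 24 at *Itpr1* and 22 at *Plcb4*.

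Most of the regions lay inside the genes, as did most bases of the 10 loci. No preference for gene bodies is therefore read from this. By the transcript with the longest coding sequence of each gene, 70 of the 104 regions were intronic, 3 were in exons (*Plcb1* exon 15, *Itpr1* exon 37 and *Itpr2* exon 1), 13 were upstream and 9 downstream, and 9 were in the gene body outside that transcript. By distance, 28 regions were within 3 kb of a start of the gene itself, 10 within 3 kb of a start of another gene only, 60 in the gene body farther than 3 kb from any start, and 6 in the flanks farther than 3 kb from any start. The median GC content of the summit window was 61.3% in the first of these classes and 46.6% in the gene body class. For control females, 25 of 45 peaks were farther than 3 kb from any start, beside 9149 of 21128 peaks with a full summit window. For VEDS males the numbers were 64 of 102, beside 22066 of 41365. The differences from the genome were not tested.

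Promoter peaks, within 3 kb of any annotated start, were found at 8 of the 10 genes in control females, where 47.4% of protein-coding genes had one, and at 9 of 10 in VEDS males, where 58.5% had one. *Prkcb* lacked a promoter peak in both long lists and *Itpr3* in the control female list. In the control male and VEDS female libraries none of the 10 genes had a promoter peak, beside 1.56% and 1.49% of protein-coding genes. The genes had between 2 and 13 distinct annotated starts each, which fell into 62 groups when starts within 500 bp were joined. A peak within 250 bp was present at 7 of these groups in control females and at 12 in VEDS males. Among the 24 groups with a protein-coding transcript the numbers were 7 and 9. The share over all start groups of the annotation was not computed. Nothing is therefore read from these numbers about the 10 genes or about a difference between the libraries.

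Of the Gq effectors, *Plcb1* (PLCβ1) is the longest locus, with 729.2 kb including flanks. It had 8 control female peaks and 16 VEDS male peaks, beside medians of 1 and 3 for the 106 genes of similar length (gene body within 1.25-fold). Per 100 kb these are 1.1 and 2.19 peaks, beside medians of 1.53 and 2.42 over all protein-coding genes, so that the order depended on the reference used. The promoter peak (region 1, chr2:134785973-134786453) rested on 11 fragments in control females and 43 in VEDS males, with fold enrichments over local background of 6.55 and 12.1. It had the highest −log10 q of the locus in the VEDS male list (33.4). In the control female list the highest was 14.4, at region 17 (chr2:135492592-135493171), downstream of the gene at 706.7 kb from its 5′ end. Neither of the alternative start groups 434.7 kb and 463.1 kb into the gene had a peak within 250 bp, though region 8 lay 1085 bp from the former.

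Of the 4 control male peaks, 3 were at *Plcb1*. Region 17 was shared by the control female (17 fragments), control male (5 fragments) and VEDS male (34 fragments) libraries, but the control male summit lay outside the control female peak. Regions 7 and 15, in introns 3 and 31, were found in the control male list alone, with 10 and 4 fragments at the summit and with 97% and 61.4% of their bases masked as repeats. Thus the control male peaks did not mark the promoter that both long lists shared. The highest-ranked region of the VEDS male list without a control female peak was region 13 (chr2:135439464-135439950, intron 31), with 30 fragments and a CTCF match.

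*Plcb3* (PLCβ3) lies among other genes, and most of the accessible regions of its locus belonged to their promoters. Of its 10 regions, 7 were within 3 kb of a start of another gene only, near *Nudt22*, *Trpt1*, *Dnajc4*, *Vegfb*, *Fkbp2*, *Bad* and *Gpr137*. It had 6 control female and 10 VEDS male peaks, beside medians of 1 and 2 for the 2722 genes of similar length, and its density of 9.35 and 15.6 peaks per 100 kb was the highest of the 10 genes. Region 4 (chr19:6979745-6980761), over a start of *Fkbp2*, held 59 fragments in control females, 7 in VEDS females and 104 in VEDS males, and control males had no peak there. It was the only region of the 10 loci with a VEDS female peak, and it held the most fragments of all 104 regions in both long lists, ranking at the top 1.16% for control females and 3.82% for VEDS males. *Plcb3* itself had a peak at the start group with 2 of its 4 coding transcripts (region 6, chr19:6969735-6970038), with 14 and 28 fragments in control females and VEDS males. A group 2.119 kb into the gene, next to *Ppp1r14b*, had a peak in the VEDS male list only (region 5, 26 fragments), and the 5′-most start (*Plcb3*-202) had none. The highest-ranked region in the VEDS male list alone was region 1 (37 fragments), near starts of *Nudt22* and *Trpt1*.

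*Plcb4* (PLCβ4) had 10 control female and 22 VEDS male peaks, beside medians of 2 and 4 for the 320 genes of similar length. Its starts were spread over 348.2 kb in 11 groups. In the VEDS male list the groups at 0, 0.543 and 105.9 kb had a peak, with 34 (region 1), 23 (region 2) and 19 (region 6) fragments. In the control female list no group had a peak within 250 bp, and the nearest was region 1 (chr2:135658398-135658884), with 12 fragments. The start at 105.9 kb (region 6, chr2:135764782-135764923) is also a RefSeq start, while the start of the transcript with the longest coding sequence, 82.82 kb into the gene, had no peak in any library.

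The highest control female −log10 q among distal regions of the 10 genes was at *Plcb4* region 4 (chr2:135711507-135712181), 53.06 kb into the gene. It ranked at the top 4.75% of the control female list and 17.8% of the VEDS male list, with 30 and 41 fragments. In the VEDS male list region 10 (chr2:135836589-135837030, intron 2, with an SRF match) was the highest of the locus, with 49 fragments beside 16 in control females. Region 11 (chr2:135852010-135852232), with 9 fragments, was the only region of the 10 loci found in the control female list and not in VEDS males. Among regions without a control female peak region 18 (intron 6) ranked highest, with 35 fragments and an AP-1 match, and intron 6 held 4 regions in the VEDS male list and 0 in control females. Regions 16, 17, 18 and 19 ranked at 59.8%, 70.2%, 25.6% and 87.4% of the VEDS male list. In the matching bins of 5 by rank, 39.6%, 18.2%, 75.1% and 7.56% of all peaks had a control female peak. The intron was picked after its values were seen, and the difference was not tested.

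*Plcg1* (PLCγ1), the isoform coupled to growth factor receptors, had its strongest peak over the first start group in both long lists (region 1, chr2:160731073-160731784), with 13 fragments in control females and 35 in VEDS males. The control female list gave 2 separate peaks there. The remaining 4 regions were in the VEDS male list only and in introns of *Plcg1*, the highest being region 3 in intron 2 with 22 fragments. The summit of region 3 also lay in an exon of *Gm27206*, and that of region 5 in an exon of *Zhx3*. None of the 4 alternative start groups had a peak.

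Among the IP3 receptors, *Itpr1* had 10 control female peaks, as many as *Plcb4*, and 24 VEDS male peaks, the highest number of the 10 genes. The medians for the 345 genes of similar length were 2 and 5. The peak at its 5′ start (region 1, chr6:108212741-108213283) was the strongest promoter peak of the 10 genes, with 30 fragments and a fold enrichment of 12.5 in control females and 86 fragments and 15.9-fold in VEDS males. It ranked at the top 7.97% and 2.14% of the lists. The other 10 start groups of *Itpr1*, of which 3 had coding transcripts, had no peak within 250 bp in any library.

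Of the 24 *Itpr1* regions, 20 were intronic, and intron 4 (98.2 kb) alone held 10, of which 3 also had a control female peak. Over the genome 47.9% of VEDS regions had a control peak. Regions 5 and 6 of that intron, less than 1 kb apart, both contained SRF matches and had 10 and 9 fragments in control females and 25 and 32 in VEDS males. In the 3′ part of the gene, regions 19 and 20 (introns 42 and 44) had AP-1 matches and 17 and 14 fragments in control females, 30 and 29 in VEDS males. Region 13 (chr6:108343912-108344163), the highest-ranked one without a control female peak, had 23 fragments.

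**Figure D2:**
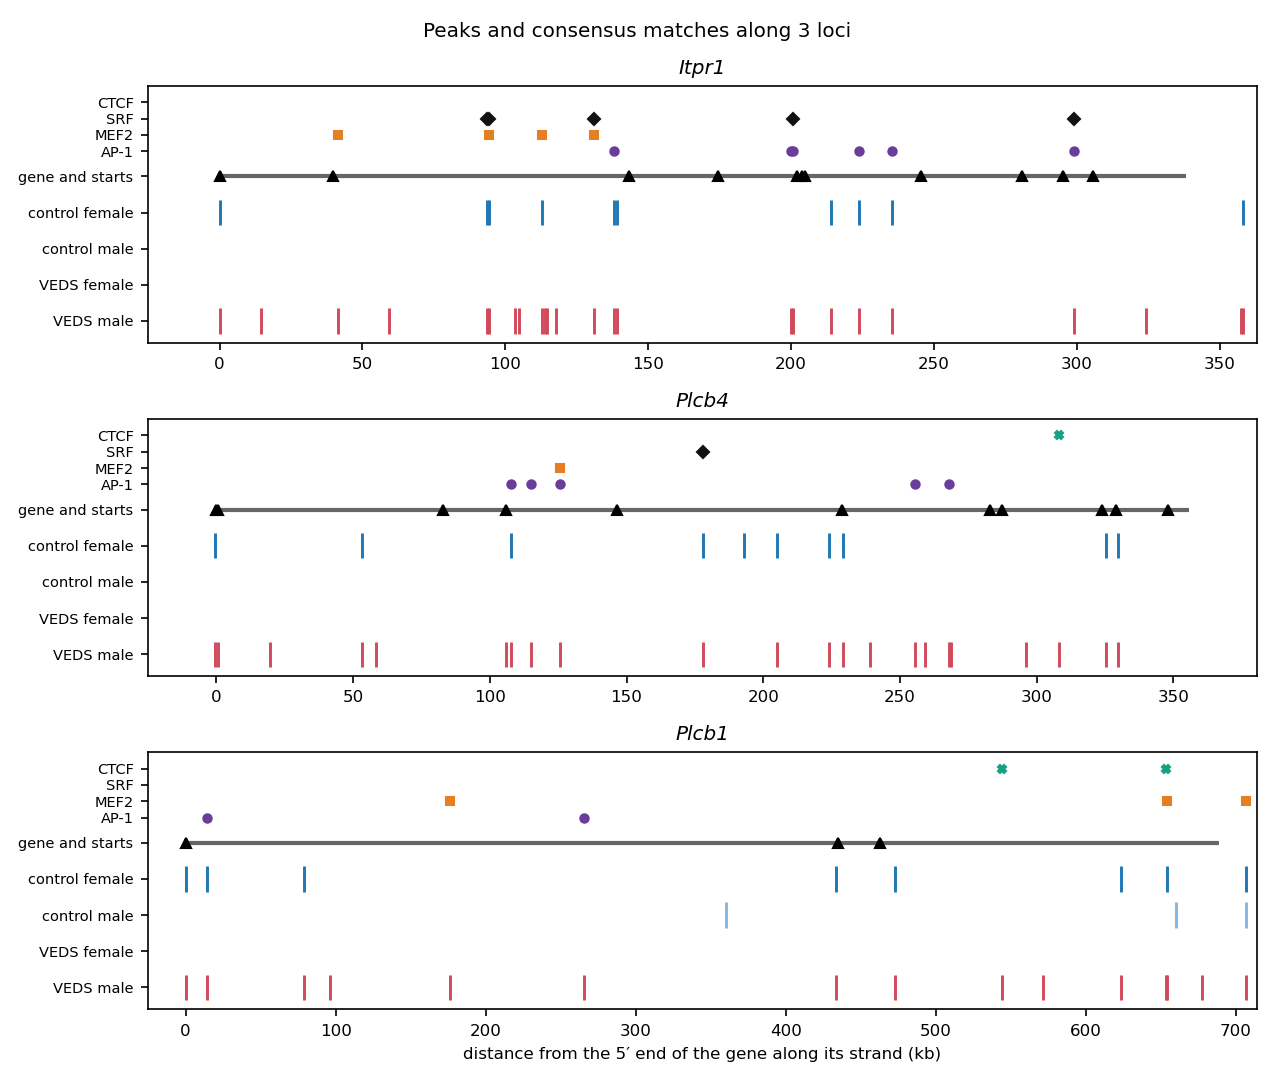
Position of peak summits along *Itpr1*, *Plcb4* and *Plcb1* (x axis, kb from the 5′ end along the strand of the gene), with 1 row per library, triangles at groups of annotated starts, and symbols in the upper rows where a summit window held an AP-1, MEF2, SRF or CTCF match. The *Itpr1* regions with both a MEF2 and an SRF match sit at 94.2 and 131.0 kb, and among the 3 loci control male peaks are present at *Plcb1* alone.

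*Itpr2* and *Itpr3*, which encode the other receptor types, had fewer peaks than *Itpr1*. *Itpr2* had 1 control female and 6 VEDS male peaks in 433.9 kb, with medians of 2 and 4 for the 295 genes of similar length. Its promoter (region 1, chr6:146501995-146502535) had 10 fragments in control females and 31 in VEDS males, and region 2 in exon 1 had 13 in VEDS males only. Region 3 (chr6:146409960-146410501, intron 9), with a CTCF match, had 23 fragments in VEDS males and was the highest-ranked one without a control female peak. *Itpr3* had 1 control female and 3 VEDS male peaks, beside medians of 1 and 2 for the 1716 genes of similar length. It had a promoter peak in VEDS males only, with 16 fragments at region 2 (chr17:27057127-27057292), 12 bp from the start, and 17 at region 1. Its only control female peak was region 3 (chr17:27133684-27134105) at a start of *Uqcc2*, with 24 fragments, and 51 in VEDS males.

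The PKC genes differed among themselves. *Prkca* (PKCα), a conventional isoform, had 3 control female and 7 VEDS male peaks, beside medians of 1.5 and 4 for the 270 genes of similar length. Per 100 kb these are 0.666 and 1.55 peaks, below the medians of all genes, so that the order again depended on the reference. Its promoter (region 1, chr11:108343840-108344322) had 20 fragments in control females and 29 in VEDS males, and ranked at 25.2% and 37.3% of the lists. Region 6 (chr11:108215316-108215851), in intron 2, had the opposite order, at 79.7% of the control female list with 8 fragments and 8.68% of the VEDS male list with 51, where it was the highest of the locus. Region 3 (intron 2) had an SRF match in the VEDS male list, and the highest-ranked region without a control female peak was region 2 (intron 1) with 21 fragments. Regions 1 and 2 were also within 3 kb of a start of *Apoh*. Region 2 lay nearer to that start (340 bp) than to one of *Prkca* (634 bp).

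*Prkcb* (PKCβ), a conventional isoform abundant in B cells and neurons, had no control female peak in 385.7 kb and 2 VEDS male peaks, with 10 and 9 fragments, beside medians of 2 and 4 peaks for the 338 genes of similar length. Both were in intron 8 (chr7:122541618-122541924 and chr7:122542124-122542520) and lay entirely in masked repeats, and the second was shared with a control male peak of 4 fragments that was the next to last of its list (rank 1235 of 1236). The coding start had a GC content of 78.7% and an observed to expected CpG ratio of 0.992 over 300 bp, above the medians of 58.0% and 0.589 for protein-coding genes, and yet had no peak in any library.

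*Prkcd* (PKCδ), the calcium-independent isoform, had 4 control female and 7 VEDS male peaks in 70.86 kb, beside medians of 1 and 2 for the 2618 genes of similar length. The promoter (region 2, chr14:30626125-30626680) had 15 fragments in control females and 38 in VEDS males. In both long lists the strongest peak was downstream of the gene (region 6, chr14:30594192-30594681), with 29 and 81 fragments. A second RefSeq start, 15.91 kb into the gene by GENCODE, had no peak within 250 bp, and region 4, 693 bp away, had 17 fragments in VEDS males only, where region 3 (21 fragments) ranked highest among regions without a control female peak.

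In the VEDS male list the rank of a region was tied to whether the control female list held it. A control female peak was present for 13 of 13 peaks in the highest of 5 equal bins of the list by −log10 q, then 18 of 22, 9 of 19, 3 of 19, and 1 of 29 in the lowest bin. Over all peaks the shares were 97.6%, 75.1%, 39.6%, 18.2% and 7.56%, each within the 95% Wilson interval of the 10 genes. The 43 regions in both long lists had a median of 32 fragments in VEDS males (range, 11–104), and the 58 without a control female peak a median of 15.5 (range, 8–37). The lack of a called peak was therefore not read as closed chromatin.

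**Figure D3:**
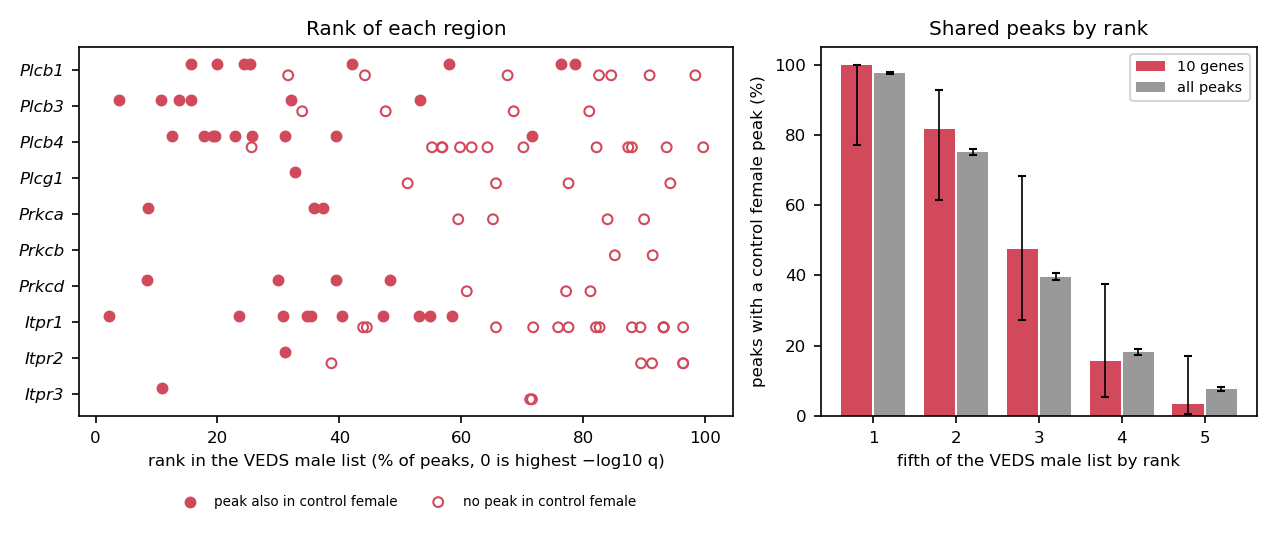
Left, rank of each region in the VEDS male list (x axis, percent of peaks, 0 being the highest −log10 q), filled where the control female library also had a peak. Right, share of VEDS male peaks with a control female peak in each of 5 equal bins of the list for the 10 genes and all peaks, with 95% Wilson intervals. The shares fell from 100% to 3.45% and from 97.6% to 7.56%.

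For the 43 regions shared by the long lists, the ratio of VEDS male to control female fragments at the summit had a median of 2.33, beside 2.45 over 19620 shared regions of the genome. These fragments were not scaled for depth, which is unknown here, so that a ratio is read against the genome median and not against 1. The 95% interval of the ratio, which covers counting error only, included the genome median for all but 2 of the 43 regions (4.65%), beside 1.66% of shared regions in the genome outside it (0.765% above and 0.892% below). Nothing is read from the number, since 95% intervals leave some regions out by counting error. At *Plcb4* region 4 the ratio was 1.37 (95% CI, 0.833–2.27), below the median, and at *Prkca* region 6 it was 6.38 (95% CI, 3.0–15.6), above it. With 1 library on each side, this compares the libraries, which also differ in sex, and not the genotypes.

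**Figure D4:**
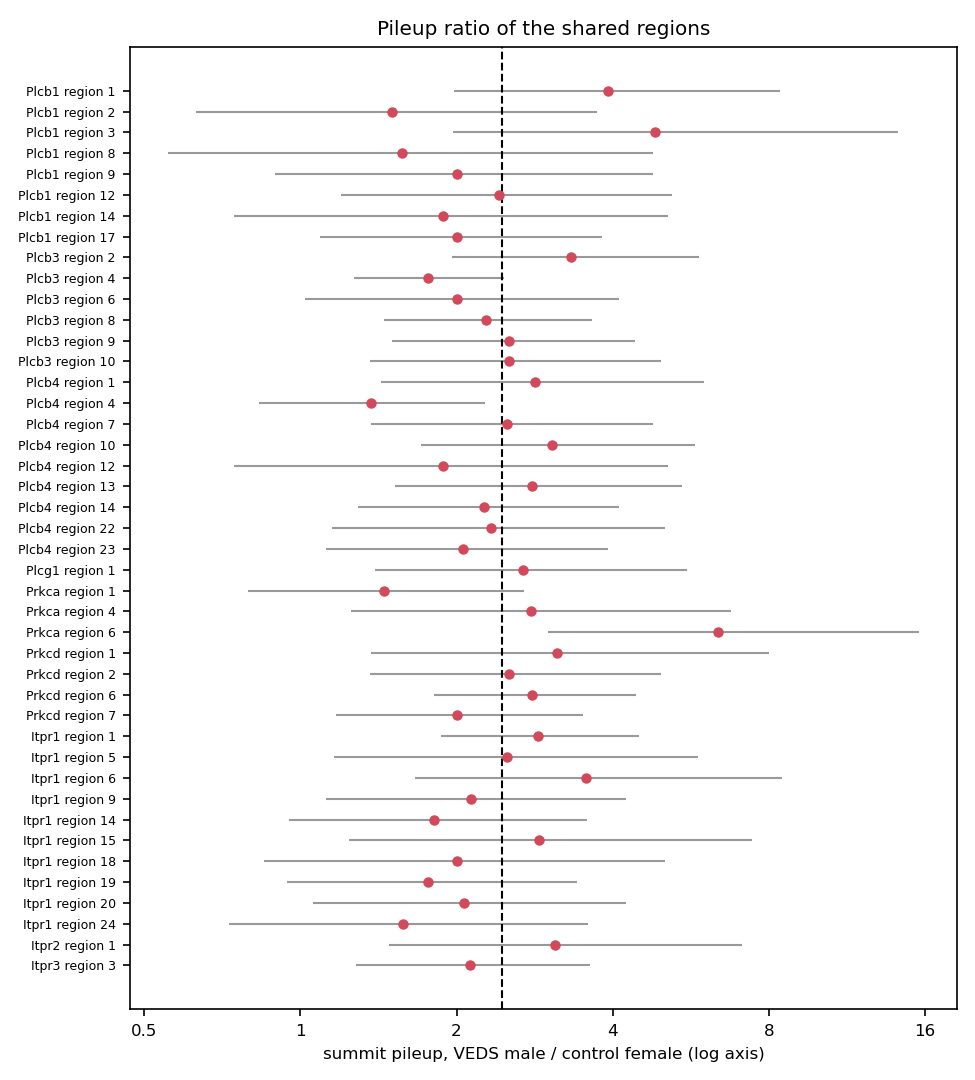
Ratio of fragments at the summit (pileup) in VEDS males to those in control females (x axis, log scale) for each of the 43 shared regions, with 95% intervals for counting error. The dashed line is the median of all shared regions in the genome (2.45), and only *Plcb4* region 4 and *Prkca* region 6 have intervals on one side of it.

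The sequences under the control female peaks of these 2 regions are shown, as the ends of the range of ratios, with the 11 bases around the summit in capitals (chr2:135711992-135712181 and chr11:108215586-108215809, plus strand). None of the motifs searched was present in the 300-bp window of either region.
Plcb4 region 4: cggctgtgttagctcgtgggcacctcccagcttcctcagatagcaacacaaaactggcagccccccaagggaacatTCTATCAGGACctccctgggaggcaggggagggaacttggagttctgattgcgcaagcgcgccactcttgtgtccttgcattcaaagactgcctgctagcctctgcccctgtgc
Prkca region 6: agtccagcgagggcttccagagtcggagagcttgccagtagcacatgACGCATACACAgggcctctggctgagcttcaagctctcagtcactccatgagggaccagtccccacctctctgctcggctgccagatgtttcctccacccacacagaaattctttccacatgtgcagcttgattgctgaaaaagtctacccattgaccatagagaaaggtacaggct

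Motifs were counted as consensus matches on both strands in the 300 bp around each summit. A window can reach beyond its peak. The MEF2 matches at *Plcb1* region 5, *Plcb4* region 9 and *Itpr1* region 3 were not fully inside the peak. The same held for the SRF matches at *Prkca* region 3 and *Itpr1* region 17. AP-1 (TGACTCA or TGAGTCA) was present in 5 of 45 control female windows, or 11.1%, beside 11.6% of all windows of that list, and in 15 of 102 VEDS male windows, or 14.7%, beside 11.6% of all. The 15 AP-1 regions included 6 at *Itpr1* and 5 at *Plcb4*. MEF2 was present in 4 control female windows (8.89%, beside 5.55% of all) and 8 VEDS male windows (7.84%, beside 5.79%). Its matches fell in *Itpr1* (regions 3, 6, 9 and 13), *Plcb1* (regions 5, 14 and 17) and *Plcb4* (region 9). Both shares lay within counting error of the background.

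The SRF CArG box was present in 3 control female windows (6.67%; 95% CI, 2.29%–17.9%), beside 3.02% of all. It was present in 7 VEDS male windows (6.86%; 95% CI, 3.36%–13.5%), beside 3.09% of all. The control female interval included the share of all windows, and the VEDS male interval did not. Farther than 3 kb from any start, the VEDS male intervals of SRF (above) and ZEB1 (below) also left out the share of all such windows. The intervals take windows as independent and were not adjusted for the number of motifs, so they are not read as tests. Farther than 3 kb from any start, 3 of 25 control female windows (12%, beside 4.34% of all such windows) and 6 of 64 VEDS male windows (9.38%; 95% CI, 4.37%–19.0%, beside 3.94%) had one. *Itpr1* accounted for 5 of the 7 regions (5, 6, 13, 17 and 21), and its share was 5 of 24 windows, or 20.8% (95% CI, 9.24%–40.5%), a gene singled out after its values were seen. Without *Itpr1* the share was 2 of 78, or 2.56%. The remaining matches were at *Plcb4* region 10 and *Prkca* region 3.

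CTCF matches were found in the VEDS male list only, at 4 regions (3.92%, beside 4.34% of all windows), namely *Plcb1* regions 10 and 13, *Plcb4* region 21 and *Itpr2* region 3. Among control female windows 0 of 45 had one, beside 2.66% of all. TEAD (GGAATG) was present in 11 control female windows (24.4%, beside 18.1%) and 18 VEDS male windows (17.6%, beside 19.0%), and ZEB1 (CAGGTG) in 9 (20%, beside 13.3%) and 13 (12.7%, beside 15.0%). Farther than 3 kb from any start, ZEB1 was present in 2 of 25 control female windows (8%, beside 12.4%) and 3 of 64 VEDS male windows (4.69%; 95% CI, 1.61%–12.9%, beside 14.6%), whereas the VEDS male TEAD share was 21.9%, beside 22.9%. The cAMP response element (TGACGTCA) was absent from the windows of both long lists, beside 2.59% and 1.77% of all windows, as was the NFI palindrome, beside 0.0521% and 0.0556%. The steroid receptor palindrome had no exact match, beside 0.0379% and 0.0435% of all windows. With 1 mismatch it had a single match, in *Prkcd* region 5 (chr14:30597374-30597388) of the VEDS male list, where 0.309% of all windows had such a match. Matches describe the letters in these windows and are not evidence of binding.

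**Figure D5:**
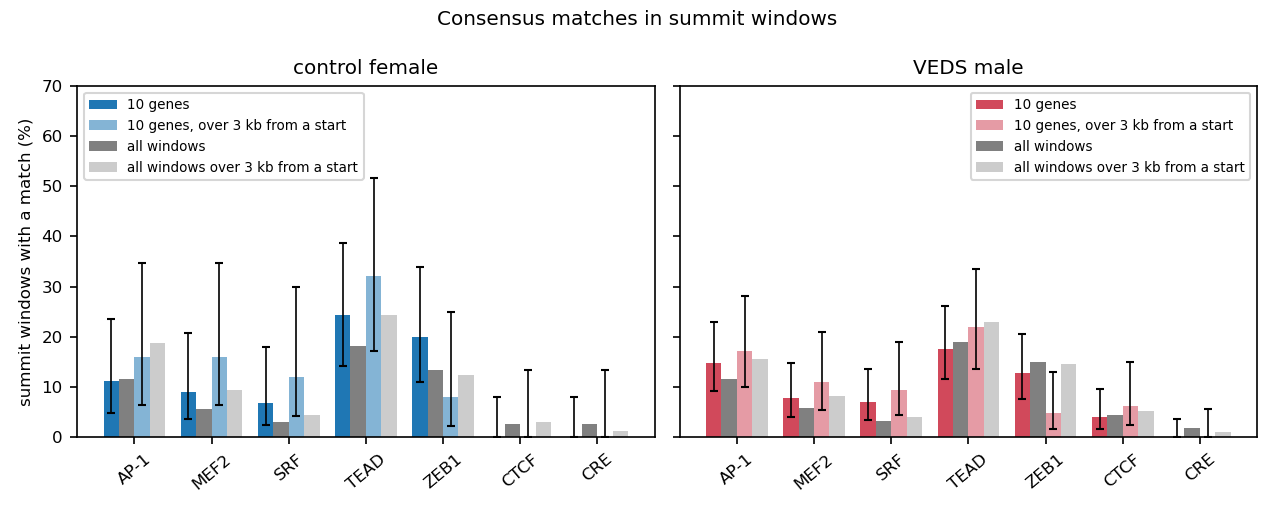
Share of 300-bp summit windows with a consensus match (y axis, percent) at the 10 genes (95% Wilson intervals) and in all windows of the list, each also for windows farther than 3 kb from a start, for the control female and VEDS male libraries. SRF was at 6.67% and 6.86% for the 10 genes beside 3.02% and 3.09% of all windows, and no cAMP response element was found at the 10 genes.

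Of 47 other genes of the pathway, 26 (55.3%) had a promoter peak in the control female list, 36 (76.6%) in the VEDS male list, and 0 in each of the short lists, beside the genome shares of 47.4% and 58.5% in the long lists. All 10 diacylglycerol kinase genes, whose products remove diacylglycerol, had one in the VEDS male list and 7 in the control female list. Of the remaining phospholipase C and phospholipase C-like genes only 4 of 11 had one, in both long lists (*Plcd1*, *Plcd3*, *Plce1* and the phospholipase C-like *Plcl1*). *Gnaq* and *Gna11*, which encode G proteins upstream of the β isoforms, had promoter peaks in both long lists, as did *Rgs2* and *Rgs5*, which limit Gq signaling. Of the 4 Gq family genes listed, 2 had a promoter peak in the control female list and 3 in the VEDS male list. The genes with a promoter peak in the VEDS male list and none in the control female list were *Prkch*, *Prkcz*, *Prkd1*, *Gna15*, *Rgs4*, *Dgka*, *Dgki*, *Dgkk*, *Impa1* and *Ppp1r14a*, the last encoding the PKC-activated inhibitor of myosin phosphatase.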

How the data were processed

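Per the labels and the methods of the study, ATAC-seq libraries were aligned to mm10 (GRCm38) and peaks were called by the authors on each library with MACS2, with duplicate removal by barcode, cut-site correction and exclusion of blacklisted regions; the aligner is not given in the sources used here. The deposited values of each peak were a score, a fold enrichment (ratio of summit to local background), −log10 p and −log10 q. They were used only to rank and describe peaks, and the lowest −log10 q was 1.303 to 1.321.

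Peaks in the gene body or within 20 kb were taken (GENCODE vM21) and merged at 1 bp of overlap. Fragments at a summit are the MACS2 pileup there, recovered as the whole number giving both the fold enrichment (pseudocount 1) and −log10 p. A number was found for 99.3% to 99.9% of peaks, and for 100% of 500 simulated peaks. The unit of the pileup is not stated in the sources. After cut-site correction it may be the cut site, so that 1 fragment can count more than once. Shares have 95% Wilson intervals, and fragment ratios have exact binomial intervals, for counting error only. Both take the units counted as independent. Motif windows, 300 bp long, and the 3 kb promoter distance followed the study. Masked bases are in lower case in the reference. Of the 10 genes 9 matched RefSeq promoter entries, with 11 starts. Sequences are from GRCm38.

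The members, the motif set and the pathway and marker lists were chosen with earlier results of these data known. Named at each gene were the start peaks, the peak of highest −log10 q per list, regions in at least 3 lists, regions with a MEF2, SRF, CRE, CTCF or NFI match or steroid palindrome, AP-1 regions in both long lists, and the highest-ranked region in 1 long list only; pathway genes were named where the long lists differed, and the 8 further pathway genes named with peaks in both lists, and the regions at the ends of the range of ratios and the introns described, were chosen after their values were seen. Alternatives were stricter −log10 q, equal list size, each library left out, other loci, distances, windows and consensus sequences, and a filter on masked bases. Python 3.11.15, numpy 2.4.6, pandas 2.3.3, scipy 1.17.1, pysam 0.24.0 and matplotlib 3.10.9 were used. RNA-seq data and read-level depth were not analysed here.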

Additional observations from a re-analysis of the deposited data

Results flagged for a closer look

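The difference between genotypes had opposite directions in the sexes, with 1 library in each, and the difference of directions was not tested. At the 10 loci the VEDS female library had 44 fewer peaks than the control female (−44; 1 beside 45), and the VEDS male library had 98 more than the control male (98; 102 beside 4). For genes with a peak within 3 kb of a start, the VEDS minus control difference was −8 in females (0 beside 8) and 9 in males (9 beside 0). List length moved with these values, at 504 peaks beside 21176 in females and 41444 beside 1236 in males, and genotype, sex and list length cannot be told apart.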

How the results depend on the processing

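Each of the counts rests on 1 long list per genotype. Leaving out each library in turn gave 4 to 44 regions with a control peak and 1 to 101 with a VEDS peak, shares of 2.08% to 97.7% of control regions with a VEDS peak and 1.96% to 100% of VEDS regions with a control peak, 0 to 5 (control) and 0 to 15 (VEDS) AP-1 regions, 0 to 4 and 0 to 8 MEF2 regions, 0 to 8 and 0 to 9 genes with a promoter peak, and 0 to 7 and 0 to 12 start groups with a peak. The low values came from leaving out the control female or VEDS male library, except that the share of VEDS regions was 100% without the VEDS male library. At equal list size (504 peaks of highest −log10 q per list), 2 control regions and 1 VEDS region were left, with shares of 50% and 100%, and 0 for each of the AP-1, MEF2, promoter and start group counts.

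A −log10 q of at least 10 left 17 control and 46 VEDS regions, a share of 100% of control regions with a VEDS peak, 3 and 8 AP-1 regions, 2 and 4 MEF2 regions, and 3 genes and 2 start groups with a control peak. A −log10 q of at least 5 left 2 control and 5 VEDS regions with MEF2. With regions whose nearest start was of the gene itself, 27 control and 64 VEDS regions, 3 control AP-1 regions, and 2 and 5 MEF2 regions were left. Windows of 500 bp gave 8 control AP-1 regions, windows of 200 bp gave 4 VEDS MEF2 regions, and the relaxed MEF2 consensus gave 9 and 14. The cause of these changes beyond fewer peaks or a wider search was not tested. The other 72 comparisons of a value with its alternative stayed within 1.5 times or 1 interval. Depth per library is unknown, and with medians of 6 and 7 fragments at a summit the short lists can show little. The libraries pair by sex across the genotypes, and the values within each sex are given above. No paired analysis was possible because each sex had 1 library per genotype and no result came from a test.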
